A study of Schizosaccharomyces pombe with 8 samples.

Results

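Of the 527 genes listed with counts, 7 are considered here: the ribosome assembly factor genes mrt4, rlp24, nog1, rlp7 and tif6 and the RNA helicase genes has1 and dbp2 of the fission yeast Schizosaccharomyces pombe. They were chosen by gene name, with earlier results of these data known. All 7 were found by matching the listed identifiers to fission yeast gene symbols. The study sequenced RNA of wild-type cells (WT, strain yAS99) and of knockout cells without Slr1p (slr1-), the fission yeast homolog of the La-related protein LARP1, to ask which RNAs differ in abundance and in association with polysomes when Slr1p is absent. All cells grew in YES medium at 32 °C with shaking at 200 rpm and received cycloheximide at 100 µg/mL, which holds ribosomes on mRNA. Total RNA and polysome RNA of each strain gave 4 groups of 2 biological replicates, WT total, WT polysome, slr1- total and slr1- polysome. With only 2 libraries per group, each p-value rests on a spread shared by the 4 groups and drawn toward that of the other genes. Nothing in the labels says whether a strain's replicates were separate clones, and the slr1 transcript was not analysed here, so every direction rests on the labels of the libraries.

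Ribosomes are built in the nucleolus from ribosomal RNA and ribosomal proteins with the help of assembly factors, which bind the precursor particles and leave before translation starts. Some of these factors resemble a ribosomal protein and hold its place on the precursor of the large subunit: in budding yeast Mrt4 does so for the stalk protein P0 and Rlp24 for a protein of the Rpl24 family. Rlp7 resembles ribosomal protein L7. Nog1 is a GTPase of the large subunit precursor, and Tif6, the yeast eIF6, keeps the large subunit from joining the small subunit too early. Has1 and Dbp2 are DEAD-box proteins, enzymes that use ATP to unwind or remodel RNA. In budding yeast Has1 acts on precursors of both subunits, and Dbp2, a relative of human DDX5, takes part in ribosomal RNA processing and in mRNA quality control.

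The counts over the listed genes summed to between 550490 and 1110838 per library, and these sums are not the depth of the libraries, since the listed genes need not be all the genes counted. The members held between 3027 and 4017 counts per library, with between 153 (has1) and 1020 (tif6) counts per member and library. The summed share of the members was 0.437% and 0.507% in the WT total libraries, against 0.272% and 0.315% in the slr1- total libraries. In the polysome libraries it was 0.659% and 0.665% for WT and 0.585% and 0.554% for slr1-. The 126 ribosomal protein genes made up 45.3% to 45.5% of all listed counts for WT total RNA, and 50.3% to 54.3% for slr1- total RNA. Every fold change below depends on how the libraries were scaled to each other. Values are given as normalised counts, the deposited counts divided by a TMM-scaled library size, with mean ± SD over the 2 libraries of a group.

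**Figure D1:**
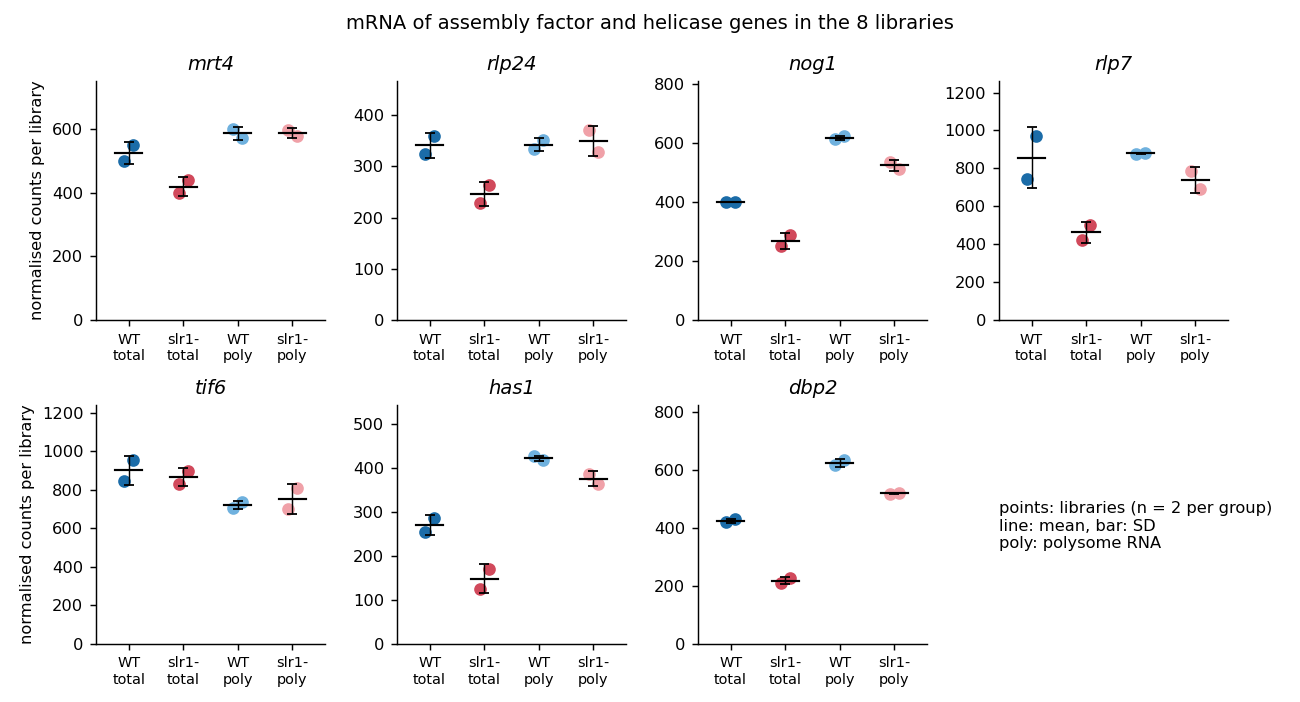
Normalised counts per library (y axis, linear, from 0) of the 7 genes in WT total, slr1- total, WT polysome and slr1- polysome RNA, with the mean as a line and the SD as a bar. In total RNA both slr1- libraries lie below both WT libraries for 6 genes, and for tif6 they overlap.

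The large subunit factors differed in how far their total RNA moved. The GTPase gene nog1 (SPBC651.01c.1) had 402 and 401 normalised counts in WT total RNA against 250 and 288 in slr1- total RNA. Both slr1- libraries lay below both WT libraries, and nog1 fell 1.49-fold (log2 -0.58 ± 0.14 SE; adjusted p 0.00643, edgeR quasi-likelihood test with Benjamini-Hochberg adjustment over the 527 genes). In bulk RNA fewer cells holding an mRNA and less of it per cell cannot be told apart. The gene rlp7 (SPAC664.06.1), whose product resembles ribosomal protein L7, had 742 and 970 normalised counts in WT and 423 and 500 in slr1- total RNA. It fell 1.85-fold (log2 -0.89 ± 0.16; adjusted p 0.00228), and its WT libraries had the largest SD of any member and group, 161 on a mean of 856. The smallest fall that passed was that of rlp24 (SPAC22E12.13c.1), from 324 and 359 to 229 and 263 normalised counts (log2 -0.47 ± 0.15; adjusted p 0.0240). The rlp24 call was lost without replicate 2 of WT total RNA (log2 -0.40) and without replicate 1 of slr1- total RNA (log2 -0.38), in fits where the library left over is assumed to vary like the other groups. It was also lost with DESeq2 (-0.40; adjusted p 0.0791) and with the compared groups only (-0.35; adjusted p 0.123), where 4 members passed.

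Of the other large subunit factors, mrt4 (SPBC11G11.03.1), which holds the place of the stalk protein, had 501 and 551 normalised counts in WT and 399 and 440 in slr1- total RNA. The groups did not overlap, but the log2 difference of -0.33 ± 0.13 missed the threshold (adjusted p 0.0580; 95% interval -0.62 to -0.03). It passed without replicate 2 of slr1- total RNA (log2 -0.40; adjusted p 0.0371). The eIF6 gene tif6 (SPCC1919.09.1) had 846 and 955 normalised counts in WT and 831 and 897 in slr1- total RNA. The tif6 libraries of the strains overlapped, with a log2 difference of -0.06 ± 0.13 (adjusted p 0.699; 95% interval -0.34 to 0.22), an interval that still holds a moderate change in either direction.

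Both helicase genes were lower in slr1- total RNA. The dbp2 mRNA (SPBP8B7.16c.1) had 419 and 429 normalised counts in WT and 209 and 226 in slr1- total RNA. With an SD of 7.07 in WT and 12.1 in slr1- its libraries lay close together, and it fell 1.95-fold (log2 -0.96 ± 0.13; adjusted p 0.000953; 95% interval -1.25 to -0.66). The has1 mRNA (SPAC1F7.02c.1) had 255 and 286 normalised counts in WT and 125 and 171 in slr1- total RNA. It fell 1.83-fold (log2 -0.88 ± 0.18; adjusted p 0.00366), and the value ranged from -0.66 without replicate 1 to -1.12 without replicate 2 of slr1- total RNA.

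Across the 7 members, 5 fell and none rose in total RNA, against 33.6% of all listed genes that fell. Of the 401 genes that encode no ribosomal protein, as the members do not, 173 fell. The slr1- libraries lay below the WT libraries without overlap for 6 members, against 47.8% of all listed genes and 244 of these 401. The median log2 difference was -0.58 over the members, -0.19 over all 527 genes and -0.36 over the 401 genes that encode no ribosomal protein. Relative to the median of all genes, dbp2 lay 0.77 lower on the log2 scale, rlp7 0.70, has1 0.69, nog1 0.39, rlp24 0.28 and mrt4 0.14 lower, while tif6 lay 0.13 above it. Without replicate 1 of slr1- total RNA the number of listed genes past the threshold dropped from 281 to 127, of which 4 were members.

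**Figure D2:**
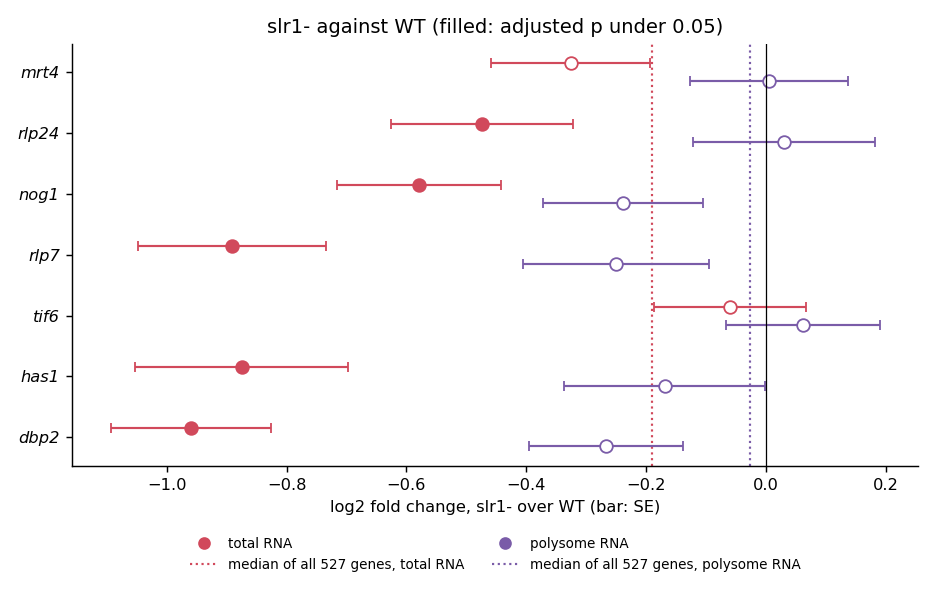
Log2 fold change of slr1- over WT (x axis) in total RNA and polysome RNA for each gene, with bars for the SE, filled points for an adjusted p under 0.05 and dotted lines for the median of all 527 genes. The total RNA points of nog1, rlp7, has1, dbp2 and rlp24 are filled and lie left of the total RNA median, and no polysome point is filled.

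How many members passed depended on the scaling of the libraries. With TMM factors computed without the ribosomal protein genes the median of all genes moved by 0.34, to 0.15, and 3 members passed: dbp2 (log2 -0.62), rlp7 (-0.56) and has1 (-0.55). The values of nog1 (-0.25) and rlp24 (-0.14) then missed the threshold, and mrt4 (0.0090) and tif6 (0.28) turned positive without passing it. With library sizes alone the median of all genes moved by -0.18 and 6 members were called lower, mrt4 included (-0.51), and tif6 was the exception (-0.24). The split of all called genes moved from 104 higher and 177 lower to 182 and 72 without the ribosomal protein genes, and to 60 and 260 with library sizes alone. The median of the members stayed 0.39 below that of all genes under each of these scalings, since a new scaling shifts every gene by almost the same amount.

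**Figure D3:**
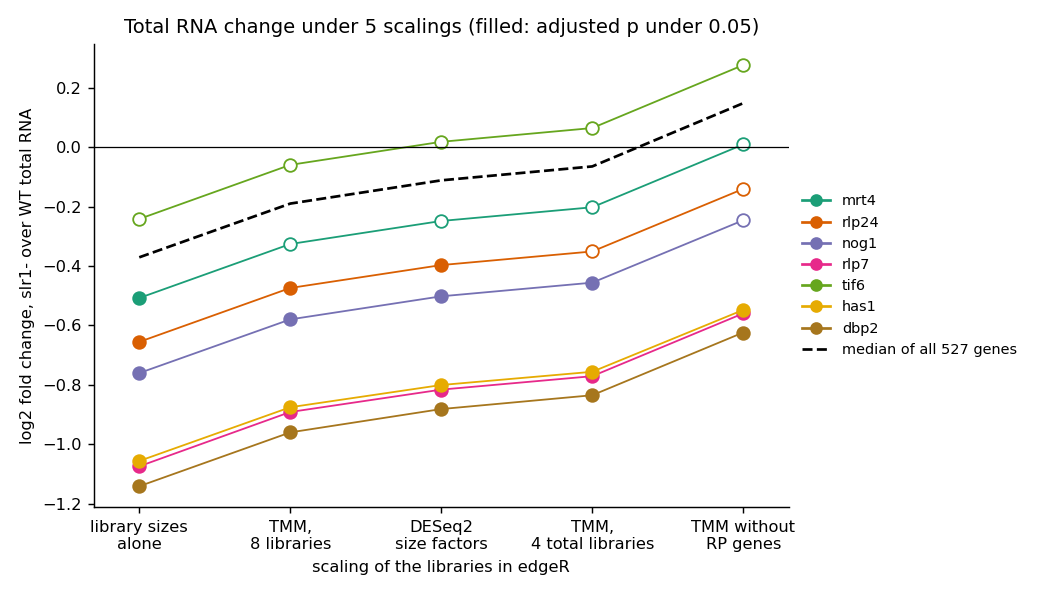
Log2 fold change of slr1- over WT total RNA (y axis) of each gene under 5 scalings of the libraries (x axis), with filled points for an adjusted p under 0.05 and a dashed line for the median of all 527 genes. The lines run nearly parallel: dbp2, rlp7 and has1 are filled throughout, and tif6 lies above the median of all genes at every scaling.

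A ratio of a pair of genes within a library does not depend on the scaling, so each member was also set against tif6. The ratio of dbp2 to tif6 counts was 0.495 and 0.449 in WT total RNA against 0.252 and 0.253 in slr1- total RNA. That of has1 was 0.301 and 0.300 in WT and 0.150 and 0.190 in slr1-, and that of rlp7 was 0.878 and 1.02 in WT and 0.509 and 0.558 in slr1-. For nog1 the ratio was 0.475 and 0.420 in WT against 0.301 and 0.321 in slr1-, for rlp24 it was 0.383 and 0.376 against 0.275 and 0.294, and for mrt4 it was 0.593 and 0.577 against 0.480 and 0.491. For all 6 genes both slr1- ratios lay below both WT ratios, so that their mRNA was lower relative to tif6 in slr1- total RNA. The ratio was computed for the members only, so no share over all listed genes stands beside this count. Of the members tif6 fell least (log2 -0.06), and it lay above the median of all genes (-0.19), so many other genes may also be lower relative to it. The choice of tif6 was made after its values were seen, and the ratio shows unequal change, not that tif6 was constant.

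In the polysome fraction, which holds mRNA carrying many ribosomes, no member differed between the strains past the threshold. The dbp2 mRNA had 615 and 634 normalised counts in WT and 517 and 521 in slr1- polysome RNA, a log2 difference of -0.27 ± 0.13 (adjusted p 0.283; 95% interval -0.55 to 0.02). For rlp7 the values were 878 and 881 in WT against 789 and 690 in slr1- (log2 -0.25 ± 0.16; 95% interval -0.59 to 0.09), and for nog1 they were 614 and 624 against 537 and 512 (log2 -0.24 ± 0.13; 95% interval -0.53 to 0.06). The has1 mRNA had 426 and 418 normalised counts in WT against 387 and 364 in slr1- (log2 -0.17 ± 0.17; 95% interval -0.54 to 0.20). For these 4 genes both slr1- libraries lay below both WT libraries, as for 30.6% of all listed genes and 161 of the 401 that encode no ribosomal protein.

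The other 3 members overlapped between the strains in polysome RNA. The mrt4 mRNA had 602 and 572 normalised counts in WT and 599 and 578 in slr1- polysome RNA (log2 0.00 ± 0.13; 95% interval -0.29 to 0.30). The rlp24 mRNA had 333 and 351 in WT and 370 and 329 in slr1- (log2 0.03 ± 0.15), and tif6 had 707 and 736 in WT and 698 and 807 in slr1- (log2 0.06 ± 0.13). These 3 log2 values turned negative with library sizes alone, to -0.09, -0.06 and -0.03. The edgeR test passed 0 members, and 0.0% of all listed genes, in this comparison. At an unadjusted p under 0.05 it passed 0 members and 19.0% of all listed genes. The limma-voom test passed 0 genes. DESeq2 passed 27 of the 200 genes to which it gave an adjusted p, and it gave none to any of the 7 members, so it made no call on them. The median log2 difference was -0.17 over the members, -0.03 over all genes and -0.09 over the 401 genes that encode no ribosomal protein.

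Whether the strain difference itself differed between polysome and total RNA was tested as an interaction. The value was positive for all 7 members, which means that the log2 difference of slr1- from WT was higher in polysome than in total RNA, and it passed the threshold for none. It was also positive for 329 of the 527 listed genes and for 288 of the 401 that encode no ribosomal protein. Its median was 0.50 over the members, 0.15 over all genes and 0.24 over these 401. The largest values were those of has1 (log2 0.71 ± 0.24; adjusted p 0.106) and dbp2 (0.69 ± 0.19; adjusted p 0.0645), followed by rlp7 (0.64 ± 0.22; adjusted p 0.106), rlp24 (0.50 ± 0.21; adjusted p 0.168), nog1 (0.34 ± 0.19; adjusted p 0.285), mrt4 (0.33 ± 0.19; adjusted p 0.291) and tif6 (0.12 ± 0.18; adjusted p 0.673). At an unadjusted p under 0.05 the edgeR test passed dbp2, rlp7, has1 and rlp24, 4 of the 7 members, against 26.6% of all listed genes. After adjustment it passed 0 members and 0.38% of the listed genes, 2 of 527. No member passed with DESeq2 (37 genes in all) or limma-voom (0 genes). Of the members, dbp2 passed with library sizes alone (0.78; adjusted p 0.0492), dbp2 (0.75) and has1 (0.95) passed without replicate 2 of slr1- total RNA (both adjusted p 0.0381), and rlp7 passed without replicate 1 of WT total RNA (0.82; adjusted p 0.0437). With TMM factors computed without the ribosomal protein genes the value of tif6 turned to -0.15 and the other 6 were 0.06 to 0.44. The interaction uses the same total RNA libraries as the comparison of the strains, so it is no separate evidence of the total RNA difference.

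Within a strain, polysome RNA was compared with total RNA to see where each mRNA was enriched. In WT cells nog1 was 1.54-fold higher in polysome than in total RNA (log2 0.62 ± 0.13; adjusted p 0.00332), has1 1.56-fold (0.64 ± 0.17; adjusted p 0.0104) and dbp2 1.47-fold (0.56 ± 0.13; adjusted p 0.00508). These were 3 of the 7 members, against 20.9% of all listed genes that were higher and 103 of the 401 that encode no ribosomal protein. The libraries of nog1 were 402 and 401 normalised counts in total against 614 and 624 in polysome RNA, those of has1 255 and 286 against 426 and 418, and those of dbp2 419 and 429 against 615 and 634. The has1 call was lost without replicate 1 of WT total (0.56; adjusted p 0.0529) or of WT polysome RNA (0.63; adjusted p 0.0612).

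The other 4 members did not pass in WT. Their log2 values were 0.16 ± 0.13 for mrt4, 0.00 ± 0.15 for rlp24, 0.04 ± 0.15 for rlp7 and -0.32 ± 0.13 for tif6 (adjusted p 0.0590), the only member below 0 there. With TMM factors computed without the ribosomal protein genes rlp24 (-0.10) and rlp7 (-0.07) turned negative, and tif6 passed as lower in polysome RNA (-0.42; adjusted p 0.0235). It also passed without replicate 1 of WT total RNA (-0.40; adjusted p 0.0461). The members' median was 0.16, against 0.01 over all genes and 0.13 over the 401 genes that encode no ribosomal protein.

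In slr1- cells 6 of the 7 members were higher in polysome than in total RNA, against 34.0% of all listed genes. Of the 401 genes that encode no ribosomal protein, 174 were higher there. The has1 mRNA had 125 and 171 normalised counts in total and 387 and 364 in polysome RNA, 2.55-fold more (log2 1.35 ± 0.18; adjusted p 6.84e-05). The dbp2 mRNA had 209 and 226 in total and 517 and 521 in polysome RNA, 2.38-fold more (1.25 ± 0.13; adjusted p 2.18e-05), and nog1 was 1.95-fold higher (0.97 ± 0.14; adjusted p 0.000117). Next came rlp7 at 0.68 ± 0.16 (adjusted p 0.00304), rlp24 at 0.51 ± 0.15 (adjusted p 0.0130) and mrt4 at 0.49 ± 0.13 (adjusted p 0.00750). The tif6 mRNA was again the only member with a negative value (-0.20 ± 0.13; adjusted p 0.190). Without replicate 1 of slr1- polysome RNA the calls of rlp7 (0.47), rlp24 (0.31) and mrt4 (0.35) were lost, and that of rlp24 also without replicate 1 of slr1- total RNA (0.41; adjusted p 0.0504). With TMM factors computed without the ribosomal protein genes has1 (0.98), dbp2 (0.87) and nog1 (0.59) passed as higher, tif6 (-0.58) passed as lower, and rlp7 (0.30), rlp24 (0.13) and mrt4 (0.11) did not pass. With library sizes alone tif6 turned to 0.20 without passing. The members' median was 0.68, against 0.06 over all genes and 0.26 over the 401 genes that encode no ribosomal protein. The difference between the strains is the interaction given above.

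**Figure D4:**
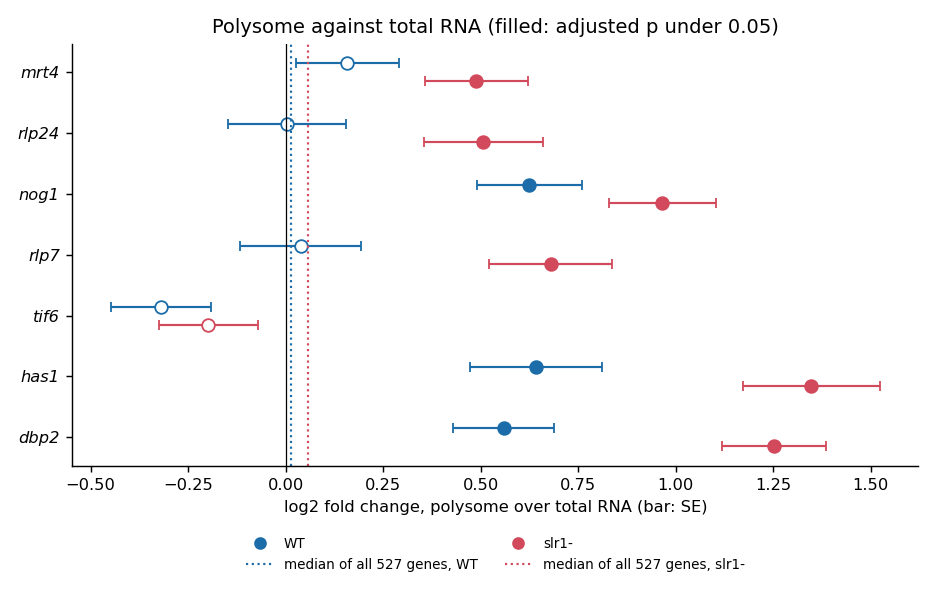
Log2 fold change of polysome over total RNA (x axis) in WT and in slr1- cells for each gene, with bars for the SE, filled points for an adjusted p under 0.05 and dotted lines for the median of all 527 genes. In WT nog1, has1 and dbp2 are filled, in slr1- every gene but tif6 is filled, and tif6 lies below 0 in both strains.

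The scaling also set how all genes split in these comparisons. In WT 110 genes were higher and 152 lower in polysome RNA, against 246 and 104 with library sizes alone. In slr1- 179 were higher and 162 lower, against 292 and 94 with library sizes alone and 100 and 246 with TMM factors computed without the ribosomal protein genes.

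The transcript lengths of the reference annotation (assembly ASM294v3) fall into separate ranges among the members. The transcripts of nog1 (2174 nt), has1 (1980 nt) and dbp2 (1829 nt) are longer than those of mrt4 (1069 nt), rlp24 (1040 nt), tif6 (954 nt) and rlp7 (920 nt), and the median of the 515 listed genes with a length is 1202 nt. The 3 longest are the members that passed as polysome-enriched in WT. Across the 515 genes the log2 value of polysome over total RNA in WT had a Spearman rho of 0.44 with transcript length, with a median of 0.23 for 204 genes of at least 1500 nt and -0.13 for the other 311. In slr1- this rho was 0.43, with medians of 0.43 and -0.13. The log2 difference of slr1- from WT in total RNA had a rho of -0.51, with medians of -0.44 and 0.12, and 75 of the 126 ribosomal protein genes rose. In polysome RNA the strain difference had a rho of -0.64, with medians of -0.15 and 0.10. These correlations run across genes of the same libraries and are descriptions, and the part of length in the members' values was not tested. From the longest transcript down, the total RNA log2 values were -0.58 for nog1, -0.88 for has1 and -0.96 for dbp2. Among the shorter transcripts they were -0.33 for mrt4, -0.47 for rlp24, -0.06 for tif6 and -0.89 for rlp7. Among the members has1 is the only gene annotated without an intron; mrt4 and rlp7 have 1, rlp24, tif6 and dbp2 have 2, and nog1 has 3.

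Levels of different genes were compared per kilobase of transcript. In WT total RNA tif6 (944 ± 81.1 normalised counts per kilobase) and rlp7 (930 ± 175) were the most abundant and overlapped each other. They were followed by mrt4 (492 ± 32.7), rlp24 (328 ± 23.6), dbp2 (232 ± 3.87), nog1 (185 ± 0.203) and has1 (137 ± 11.3), and no libraries of neighbours in this order overlapped. In slr1- total RNA tif6 (905 ± 48.8) stood alone, since its libraries lay above those of rlp7 (502 ± 59.7), which lay above those of mrt4 (393 ± 27.2). The next was rlp24 (237 ± 23.4), and nog1 (124 ± 12.2) and dbp2 (119 ± 6.60) overlapped each other above has1 (74.6 ± 16.5). In polysome RNA rlp7 was highest in WT (956 ± 2.22), above tif6 (756 ± 21.4), and overlapped it in slr1- (803 ± 76.0 for rlp7 and 789 ± 80.8 for tif6). The gene has1 was lowest in every group, with 213 ± 2.91 in WT and 190 ± 8.23 in slr1- polysome RNA.

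Other genes of ribosome biogenesis and other RNA helicases among the 527 came from lists of gene symbols. Of the large subunit assembly factors 1 further gene was listed, bud20, a zinc finger protein gene, which fell from 393 and 475 to 270 and 322 normalised counts in total RNA (log2 -0.55 ± 0.15; adjusted p 0.0131). The bud20 call did not hold when replicate 2 of WT (-0.41) or replicate 1 of slr1- total RNA (-0.43) was left out, nor with TMM factors computed without the ribosomal protein genes (-0.22). Of the factors of the small subunit and its shared early precursor 0 were listed. Of 10 genes of snoRNP proteins, which guide the modification of ribosomal RNA, and nucleolar proteins, 9 fell, 0 rose and 1 did not pass, against 33.6% of all listed genes that fell and 173 of the 401 genes that encode no ribosomal protein, with a median of -0.70. Among them the nucleolin gene gar2 had 600 and 532 normalised counts in WT and 296 and 262 in slr1- total RNA (log2 -1.02 ± 0.15; adjusted p 0.00127), and the box C/D snoRNP gene nop56 fell as well (-0.83 ± 0.18; adjusted p 0.00437). The other genes that fell were gar1 (-1.05), nhp2 (-0.78), cbf5 (-0.63) and nop10 (-0.62) of the box H/ACA snoRNPs, the fibrillarin gene fib1 (-0.71), nop58 (-0.70) and srp40 (-0.62), which the reference names a nucleocytoplasmic transport chaperone. Leaving out 1 library of total RNA moved nop10 to between -0.20 and -0.95 and ended its call in 3 of 4 cases, all but that without replicate 1 of WT. For fib1 the value ranged from -0.34 to -1.22 and the call was lost in all cases but that without replicate 1 of slr1-. With replicate 2 of WT left out nhp2 had a value of -0.47. Omitting replicate 1 of slr1- ended the calls of nhp2 (-0.82), nop58 (-0.47) and cbf5 (-0.49). The U3 snoRNP gene snu13 did not pass (-0.00 ± 0.11). The number that fell was 3 with TMM factors computed without the ribosomal protein genes and 5 without replicate 1 of slr1- total RNA. Between the strains in polysome RNA, and in the interaction, 0 of the 10 and 0 members passed. Polysome over total RNA was higher for 5 and lower for 3 of the 10 in WT, where 20.9% of all listed genes were higher, led by gar2 (0.84), nop56 (0.73) and gar1 (0.64) and by fib1 (-1.27), nop10 (-0.68) and snu13 (-0.61). In slr1- it was higher for 7 and lower for 2, where 34.0% of all listed genes were higher, led by gar1 (1.82), gar2 (1.70) and nop56 (1.45) and by fib1 (-0.65) and snu13 (-0.48). For bud20 it passed in slr1- (0.51 ± 0.15; adjusted p 0.0140) and not in WT (0.05).

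Of 4 other DEAD-box helicase genes 1 fell in slr1- total RNA, 0 rose and 3 did not pass, with a median of -0.26. For a list of 4 genes that count of 1 is near the share of all listed genes that fell, 33.6%. Both slr1- libraries lay below both WT libraries for 3 of the 4, against 47.8% of all listed genes. The gene that fell was ste13, whose product acts in mRNA decay and translational repression, with 270 and 297 normalised counts in WT and 134 and 181 in slr1- (log2 -0.85 ± 0.17; adjusted p 0.00364). The values of sum3, the Ded1 helicase gene (-0.28 ± 0.13; adjusted p 0.0886), of uap56, a gene of mRNA export (-0.25 ± 0.14; adjusted p 0.150), and of tif1, the eIF4A gene (0.09 ± 0.11; adjusted p 0.475), did not pass. Of the helicase genes considered here has1, dbp2 and ste13 were therefore called lower, and sum3, uap56 and tif1 were not called. With TMM factors computed without the ribosomal protein genes tif1 passed as higher (0.43) and ste13 as lower, and with library sizes alone 3 of the 4 passed as lower. Like has1 and dbp2, the genes ste13, uap56 and sum3 were higher in polysome than in total RNA, with log2 values of 0.93, 0.53 and 0.35 in WT and 1.46, 0.71 and 0.61 in slr1-, while tif1 did not pass in WT (0.21) or in slr1- (0.09). These 3 of 4 stand against 20.9% of all listed genes that were higher in WT and 34.0% in slr1-. Between the strains in polysome RNA, and in the interaction, 0 of the 4 passed.

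The patterns over the 8 libraries were compared by the root mean square difference of log2 values, each gene centred on its own mean. The members lay 0.13 (mrt4), 0.14 (rlp24), 0.14 (rlp7), 0.17 (nog1), 0.26 (dbp2), 0.29 (has1) and 0.43 (tif6) from their own mean pattern. The median of the other listed genes was 0.38. The mean pattern includes each member, which shortens the members' distances and not those of the other genes. The tif6 pattern thus lay farther from the members' mean than that of the median listed gene. The 5 other genes nearest to the mean pattern were his5 of histidine synthesis (0.04), srp40 (0.05), the ABC protein gene SPBC16H5.08c (0.07), the histidine tRNA ligase gene hrs1 (0.07) and pcn1, the gene of the DNA polymerase clamp PCNA (0.08). For single members the nearest listed genes were tif308 of initiation factor eIF3 for mrt4 (0.05), bud20 for rlp24 (0.07), the chaperonin genes cct1 for nog1 (0.06) and cct5 for dbp2 (0.09), erg28 for rlp7 (0.05), SPAC458.02c for has1 (0.05) and tom7 for tif6 (0.08).

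The authors' deposited table gives log2 fold changes of slr1- over WT total RNA of -0.95 for dbp2, -0.88 for rlp7, -0.87 for has1, -0.57 for nog1, -0.47 for rlp24, -0.32 for mrt4 and -0.05 for tif6. In the authors' deposited table the false discovery rates of the first 5 were 3.63e-05, 0.000239, 0.000639, 0.00772 and 0.0320, and those of mrt4 and tif6 were 0.122 and 0.828. The authors' deposited table labels the first 5 as changed in "both" and the other members as "translational_only". The p-values for translation in the authors' deposited table were between 0.373 (has1) and 0.885 (mrt4), with false discovery rates of 0.902 to 0.989. The authors' deposited table also holds, for each replicate number, the polysome to total ratio of slr1- divided by that of WT. This was 1.62 and 1.49 for has1, 1.47 and 1.59 for dbp2 and 1.37 and 1.55 for rlp7. For rlp24 it was 1.37 and 1.3, for nog1 1.22 and 1.17, for mrt4 1.09 and 1.29 and for tif6 0.88 and 1.19.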

How the data were processed

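Per the labels, TRIzol RNA went through ribosomal RNA depletion into stranded libraries, which were read as single ends of 50 bp. Bowtie and RSEM were used, per the submitters' processing notes. Their versions and the genome build were not given in the sources used here. Deposited by the authors were whole-number counts for 527 genes, which may be rounded RSEM estimates. The file also holds, per the file headers, the authors' log2 fold changes, p-values and false discovery rates, a score of direction and ratios of polysome to total RNA. How the 527 genes were chosen is not stated. Of the identifiers, 515 matched the reference ASM294v3, which gave names, introns and spliced transcript lengths, and these may differ from those used for counting. No sequences are shown, since the build behind the counts is not given.

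The test was the quasi-likelihood model of edgeR 4.0.16 under R 4.3.3, with TMM factors and 1 mean per group over 8 libraries (4 residual degrees of freedom, biological coefficient of variation 0.113). No gene was removed, since the lowest mean was 161 counts. Standard errors are the absolute log2 change divided by the square root of F, and Benjamini-Hochberg adjustment ran over 527 genes, with a threshold of 0.05. The replicate SD of log2 ratios over genes was 0.163 to 0.289, and over the members 0.0516 to 0.134. Alternatives were DESeq2 1.42.0, limma-voom (limma 3.58.1), other scalings, a filter at 500 counts, the compared groups only, a replicate block and leaving out each library. The named genes are the members, the genes of each pathway list past the threshold (up to 8 per direction in total RNA and 3 elsewhere, by size of change), the 5 genes nearest the members' mean pattern and the gene nearest each member. The list genes that did not pass in total RNA were named after their values were seen. Members and lists were chosen with earlier results of these data known, so the lists are no independent evidence.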

Additional observations from a re-analysis of the deposited data

How the results depend on the processing

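Of 442 values of single members under the alternatives, 391 kept their direction and their side of the threshold, 15 lost a call, 12 gained a call and 24 changed sign; the cause was not tested, apart from the shift of all genes by the scaling given above and fewer libraries or genes. The filter at 500 counts left 312 genes and 3 members (mrt4, rlp7, tif6). Of these members 2 passed in total RNA, 0 between polysome and total RNA in WT and 2 in slr1-. Of the 312 genes 134 passed in total RNA, 13 in the interaction, 160 in WT and 197 in slr1-. Members past the threshold in total RNA numbered 4 with DESeq2 and with the compared groups only, 3 with TMM factors computed without ribosomal protein genes and 4 to 6 without 1 library. Without 1 library the other ranges were 0 to 2 for the interaction, 2 to 3 for WT and 3 to 6 for slr1-, and library sizes alone gave 1 for the interaction. Genes past the threshold without 1 library ranged from 127 to 288 in total RNA, 0 to 2 in polysome RNA, 0 to 77 for the interaction, 163 to 228 in WT and 277 to 339 in slr1-. For polysome RNA DESeq2 gave 27 genes and no adjusted p for any member, so its member values are not among these; for the interaction DESeq2 gave 37, limma-voom 0, library sizes alone 31 and TMM factors without ribosomal protein genes 0.

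Values that changed sign were all of genes that had not passed. In total RNA tif6 turned to 0.018 with DESeq2 and with its size factors, 0.064 with the compared groups only and 0.28 with TMM factors without ribosomal protein genes (mrt4 0.0090), and ranged from -0.14 to 0.031 without 1 library. In polysome RNA mrt4 turned to -0.089 with library sizes alone and -0.092 with genes of at least 500 counts, and ranged from -0.048 to 0.041 without 1 library. With library sizes alone rlp24 turned to -0.063 and tif6 to -0.034 (-0.036 with genes of at least 500 counts), with ranges of -0.084 to 0.11 and -0.048 to 0.14 without 1 library. The interaction of tif6 turned to -0.15 with TMM factors without ribosomal protein genes and ranged from -0.026 to 0.21 without 1 library. Within WT rlp24 turned to -0.10 and rlp7 to -0.066 with these factors, with ranges of -0.069 to 0.078 and -0.14 to 0.24 without 1 library, and within slr1- tif6 turned to 0.20 with library sizes alone. Among other genes in total RNA snu13 turned to 0.077 (DESeq2 and its size factors), 0.0030 (limma-voom), 0.34 (TMM without ribosomal protein genes), 7.06e-05 (replicate block) and 0.12 (compared groups only), with -0.11 to 0.12 without 1 library. With TMM factors without ribosomal protein genes sum3 turned to 0.057 and uap56 to 0.082, and tif1 turned to -0.086 with library sizes alone and -0.048 with genes of at least 500 counts.

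The labels do not say whether libraries of the same replicate number belong together, and the main fit did not pair them. The authors' deposited ratios combine libraries of the same number. The correlation over genes of the replicate differences was 0.285 between total and polysome RNA of WT, 0.0698 in slr1- and -0.144 between the strains in total RNA. A replicate block changed no call of a member and left 274 genes in total RNA, 9 in the interaction, 246 in WT and 337 in slr1-; a replicate block within strain gave 46 genes in the interaction and added the call of tif6 in WT (-0.32; adjusted p 0.0434). With the slr1- numbers crossed in the block, chosen after seeing the data, 275 genes and 5 members passed in total RNA.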
